A study of Homo sapiens with 16 samples.

Results

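HOXB13 peaks of PC-3 cells that had no counterpart in LNCaP cells and lay in acetylated chromatin are described here. A peak was included when it was called in the PC-3 HOXB13 library, overlapped no HOXB13 peak of the LNCaP control library, and overlapped by at least 1 bp a region of the PC-3 control library for acetylated histone H3 lysine 27 (H3K27ac). The sites were thus chosen by measured peak calls of these 3 libraries. The rule selected 17579 of the 70766 PC-3 HOXB13 peaks (24.8%). They are called PC-3-specific acetylated sites below. The other PC-3 peaks were 33948 PC-3-specific peaks outside acetylated regions, 6802 peaks shared with LNCaP in acetylated regions and 12437 shared peaks outside them.

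HOXB13, a posterior HOX protein, binds DNA through its homeodomain and is a lineage factor of prostate epithelium. H3K27ac is laid down at active promoters and enhancers, so a factor peak within such a region lies in chromatin that carries an active mark. HDAC3 and HDAC1 are histone deacetylases of different corepressor complexes: HDAC3 is the catalytic subunit of the NCOR/SMRT complexes, and HDAC1 belongs to the Sin3, NuRD and CoREST complexes. ATAC-seq reads out chromatin that is accessible to a transposase.

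The study used 2 established prostate cancer lines, the androgen receptor-expressing LNCaP and the androgen receptor-negative PC-3. In PC-3, HOXB13 and H3K27ac were mapped in cells with the control shRNA vector pGIPZ, and H3K27ac also in cells with an shRNA against HOXB13 (shHOXB13). In LNCaP, infected for 7 days, HOXB13 was mapped with pGIPZ, with shHOXB13, and with shHOXB13 plus a lentivirus for wild-type HOXB13 (WT) or its G84E variant. ATAC-seq and HDAC3 ChIP-seq were made with pGIPZ and with shHOXB13, and HDAC1 ChIP-seq with pGIPZ. All cells thus carried a viral vector, and no uninfected cells were among the libraries. The length of infection in PC-3 is not given in the sources used here. Each group held 1 library, so no test between conditions was possible, and every interval covers counting error only. Total tags ranged from 13522608 to 47195335 over the 12 libraries analysed, with 27662169 for PC-3 HOXB13, 14963261 for PC-3 control H3K27ac and 13522608 after knockdown.

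3 limits of the design bear on all that follows. The PC-3 HOXB13 library was made with a Santa Cruz antibody and the LNCaP HOXB13 libraries with an Abcam antibody, so cell line and antibody cannot be told apart. HOXB13 was not mapped in PC-3 after knockdown, so its loss from these sites was not measured. No hg19 sequence or gene annotation was used here. Genes, distances to gene starts and the HOXB13 motif are therefore not given, and the cell line labels were not checked against marker genes.

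The sites were spread over many acetylated regions of PC-3. A region of the control H3K27ac list held at least 1 of them in 16336 of 50352 cases (32.4%). Acetylation was about as frequent among PC-3-specific as among shared peaks: 34.1% of the 51527 PC-3-specific HOXB13 peaks lay in an acetylated region (95% Wilson CI 33.7 to 34.5), against 35.4% of the 19239 shared peaks (34.7 to 36.0). Both values follow from the lists that defined the sites and are descriptions. At the edge of the rule, the smallest overlap was 1 bp, at 2 sites, and 2 PC-3-specific peaks touched an acetylated region without overlap. The 2 inside were on chromosome 4 at 128885060 to 128885450 and at 168195460 to 168195850, with 6.51 and 28.6 normalized tags. Just outside were chromosome 1 at 2458093 to 2458483 and at 171973327 to 171973717, with 7.95 and 21.7 normalized tags. A normalized tag count is the number of tags in a peak scaled to a library of 10000000 tags. Within 500 bp of an acetylated region lay 2.67% of the 33948 peaks outside.

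HOXB13 tag counts at these sites spanned a wide range. The median was 15.2 normalized tags (quartiles 10.1 and 24.9), and the range was 4.70 to 1174.5. PC-3-specific peaks outside acetylated regions had a median of 10.8 (8.31 and 16.3). Shared peaks in acetylated regions had a median of 21.3 (12.7 and 38.3). The sites thus lay between those classes in tag count. In fold over the surrounding 10000 bp, a value of the authors' peak caller, they were close to the PC-3-specific peaks outside, with medians of 7.59 and 7.36, and below the shared acetylated peaks at 10.3.

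Most of the sites had no LNCaP HOXB13 peak close by. The median gap to the nearest LNCaP control HOXB13 peak was 8425 bp, and 1121 sites (6.38%) had one within 500 bp without overlap. Among PC-3-specific peaks outside acetylated regions the median gap was 10777 bp and 3.75% had one within 500 bp. 4 sites touched a LNCaP peak without overlap. The first of them, on chromosome 14 at 34830976 to 34831366, had 30.0 normalized tags in PC-3. The second, on chromosome 3 at 19930790 to 19931180, had 49.9 normalized tags, and in LNCaP it had a WT peak, ATAC peaks in both conditions and a control HDAC3 peak.

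In acetylated regions of 1500 to 6000 bp the sites were placed towards the middle. Of the 7224 sites in regions of 1500 to 3000 bp, 40.2% had their centre between 40% and 60% of the region's width (95% CI 39.1 to 41.3). In regions of 3000 to 6000 bp this middle part held 34.0% of 4871 sites (32.7 to 35.3). The pattern flattened in wider regions, with 22.3% of 1438 sites at 6000 to 12000 bp and 15.2% of 468 sites at 12000 to 50000 bp. Shared acetylated peaks showed the same order, with 35.8%, 29.5%, 22.4% and 13.2% in the middle part. In the 2 narrower width classes their share was lower than that of the PC-3-specific sites, by more than the counting intervals.

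**Figure D1:**
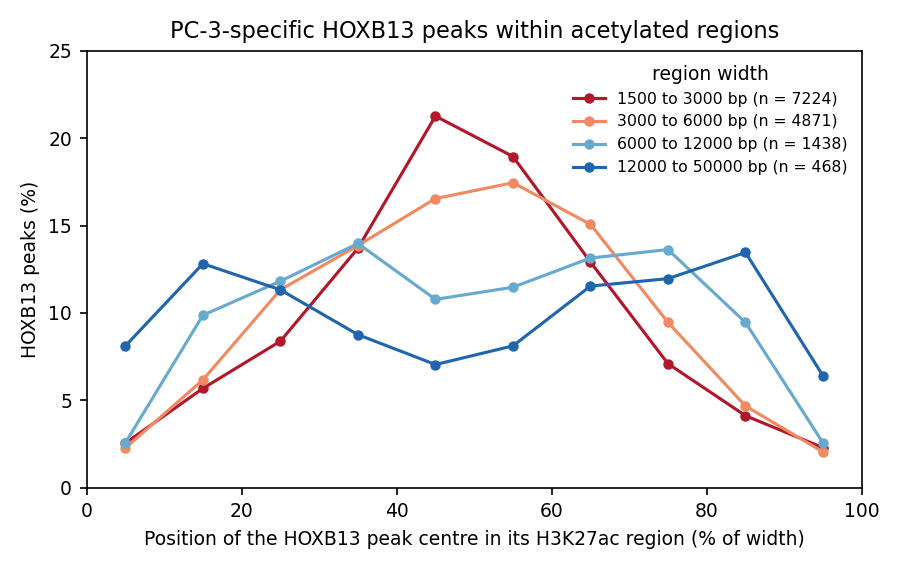
Share of PC-3-specific acetylated HOXB13 sites (vertical axis, percent) in each of 10 equal parts of the width of their H3K27ac region (horizontal axis, percent of width), with 1 line for each class of region width. In regions of 1500 to 3000 bp the line is highest in the middle, and in regions of 12000 to 50000 bp it has no peak there.

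Acetylated regions with a PC-3-specific site were wider and had more tags than those without any HOXB13 peak. Their median width was 2411 bp against 1416 bp, and their median tag count 52.8 against 21.4 normalized tags. Per kb of region the medians were 20.8 and 14.9 normalized tags, in the same order. Regions with shared HOXB13 peaks only were similar to those with a PC-3-specific site, at 2261 bp and 22.1 normalized tags per kb. Under a rule of 1 bp overlap, a wider region is more likely to hold a peak. The part of this in the difference of widths, and of region width in the difference of tag counts, was not tested. Across the 17579 sites, HOXB13 tag count and the tag count of the acetylated region had a Spearman rank correlation of 0.17. All points share the same pair of libraries and differ in region width, and the value is a description.

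Acetylated loci with a PC-3-specific site mostly held a single one. After H3K27ac regions of both PC-3 libraries that overlapped were summed into loci, 16116 of the 48128 loci called in the control held at least 1 site. Of these, 14842 held 1 site, 1146 held 2 and 128 held 3 or more. The next site lay within 5000 bp for 15.8% of the sites and for 11.7% of the PC-3-specific peaks outside, at a minimum distance between called peaks of 780 bp. Within 20000 bp the order was the other way, at 46.7% and 50.7%, and the median distance to the next was 22732 bp for the sites and 19560 bp outside. The locus with the most sites, picked after the values were seen, was on chromosome 8 at 131467373 to 131870829. It spanned 403456 bp and held 15 PC-3-specific and 4 shared peaks. Its H3K27ac count was 40774.5 normalized tags with pGIPZ and 45863.2 with shHOXB13, and it overlapped peaks of 11 of the 12 lists. Acetylated regions over 50000 bp held only 73 of the sites (0.415%), of which 52 lay on chromosome 8 and 17 on chromosome 10.

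Among loci called in fewer than 9 of the 12 lists, the one with the most sites was on chromosome 8 at 129565332 to 129626874, with 6 sites. It had 14009.7 normalized tags of H3K27ac with pGIPZ and 15513.3 with shHOXB13 (log2 ratio 0.15, exact 95% CI 0.12 to 0.17). Next were 2 loci on chromosome 10 with 5 sites each. The locus at 65163492 to 65198929 had 1424.2 and 2008.5 normalized tags of H3K27ac (log2 ratio 0.50, 95% CI 0.41 to 0.58). The locus at 76653574 to 76702923 had 1771.6 and 1826.6 (0.044, −0.036 to 0.12). The strongest HOXB13 site in each of the 3 loci had 70.9, 77.0 and 147.1 normalized tags in that order. None of those strongest sites had a LNCaP control ATAC, HDAC3 or HDAC1 peak, as was so for 82.3% of all sites. The loci as a whole overlapped peaks of 5, 7 and 6 of the 12 lists.

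The first question on the sites' behaviour in LNCaP was whether HOXB13 could be found there once it was re-expressed. With WT, 2962 of the 17579 sites (16.8%, 95% CI 16.3 to 17.4) had a HOXB13 peak, and with G84E 2531 (14.4%, 13.9 to 14.9), against 38.8% and 36.0% of all PC-3 HOXB13 peaks, which include those shared with LNCaP. A closer comparison is with the PC-3-specific peaks outside acetylated regions, which equally lacked a peak in the LNCaP control. Of these, 24.2% had a WT and 22.2% a G84E peak. The PC-3-specific acetylated sites were thus found less often, with a difference of −7.33 percentage points for WT (95% Newcombe CI −8.05 to −6.61) and of −7.76 for G84E (−8.43 to −7.07). At equal PC-3 HOXB13 tag count, by averaging over 10 equal groups, the differences were −10.0 and −10.2 points. The WT and G84E lists were far longer than the control list, with 190879 and 191796 peaks against 91430. With the 70766 best-scoring peaks of each HOXB13 list, the LNCaP control list included, the sites and the peaks outside were selected anew. The shares at the sites so selected were 6.61% and 5.75%, and the differences −4.32 and −4.67 points. After LNCaP knockdown 372 sites (2.12%) had a HOXB13 peak, against 1.81% of all PC-3 peaks and 0.731% of the PC-3-specific peaks outside.

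The forms met overlapping sets of sites. Both WT and G84E had a peak at 1541 sites (8.77%), WT alone at 1421 (8.08%), G84E alone at 990 (5.63%), and neither at 13627 (77.5%). Among PC-3-specific peaks outside acetylated regions these shares were 14.8%, 9.36%, 7.33% and 68.5% in that order. Sites with both forms had a median of 18.4 normalized tags in PC-3, and sites with neither 14.8. Their peaks in LNCaP were about as strong as any in those libraries: the median was 6.70 normalized tags for the WT peaks at the sites and 6.46 for all WT peaks, and 6.34 for G84E at the sites and overall.

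The strongest site with both forms was on chromosome 1 at 172413774 to 172414164. It had 363.3 normalized tags in PC-3 (exact Poisson 95% CI 341.2 to 386.5), 15.6 with WT and 9.50 with G84E in LNCaP. Second was chromosome 10 at 36918406 to 36918796, with 278.7 normalized tags in PC-3, 9.19 with WT and 5.66 with G84E. On chromosome 3 at 168897169 to 168897559 the counts were 252.0, 15.1 and 8.15 normalized tags, and a LNCaP control HDAC3 peak of 10.7 lay there. On chromosome 17 the site at 66643327 to 66643717 had 195.6, 21.1 and 9.73 normalized tags and a control HDAC3 peak of 29.7. It lay 280 bp from a LNCaP control HOXB13 peak. The site at 61352617 to 61353007 had 193.0, 6.70 and 6.79. At 4 of these 5 sites the WT count exceeded the G84E count, and none of the 5 had an ATAC peak in LNCaP. Of all sites with both forms, 19.7% had a control ATAC peak.

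LNCaP chromatin at the sites was more often accessible, and more often held a deacetylase, than at PC-3-specific peaks outside acetylated regions. A LNCaP control ATAC peak lay at 2143 sites (12.2%, 95% CI 11.7 to 12.7), against 1.75% outside and 9.18% of all PC-3 HOXB13 peaks. A control HDAC3 peak lay at 2485 sites (14.1%, 13.6 to 14.7), against 4.44% outside and 13.2% of all. After knockdown ATAC peaks lay at 11.1% of the sites (8.20% of all PC-3 HOXB13 peaks) and HDAC3 peaks at 12.8% (10.4% of all). HDAC1 peaks lay at 1345 sites (7.65%, 7.27 to 8.05), against 0.739% outside and 3.92% of all. The differences from the peaks outside were 10.4 (95% CI 9.94 to 10.9), 9.69 (9.14 to 10.3) and 6.91 (6.52 to 7.32) percentage points. Shared peaks in acetylated regions were higher still, with ATAC at 36.2%, HDAC3 at 43.1% and HDAC1 at 15.4%. So the acetylated sites had the lower share of re-expressed HOXB13 and the higher share of accessible chromatin of the 2 PC-3-specific classes. Peak widths ranged from 96 bp for control ATAC to 471 bp for control HDAC3, and their part in the shares was not tested directly. An alternative took peak centres within 100 bp in place of overlap, and within 500 bp of an H3K27ac region. It also changed the selection, to 19945 sites. The shares at those sites were 8.55% for ATAC, 7.66% for HDAC3 and 2.36% for HDAC1. Each stayed above that of the peaks outside (by 7.11, 4.77 and 2.07 points).

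**Figure D2:**
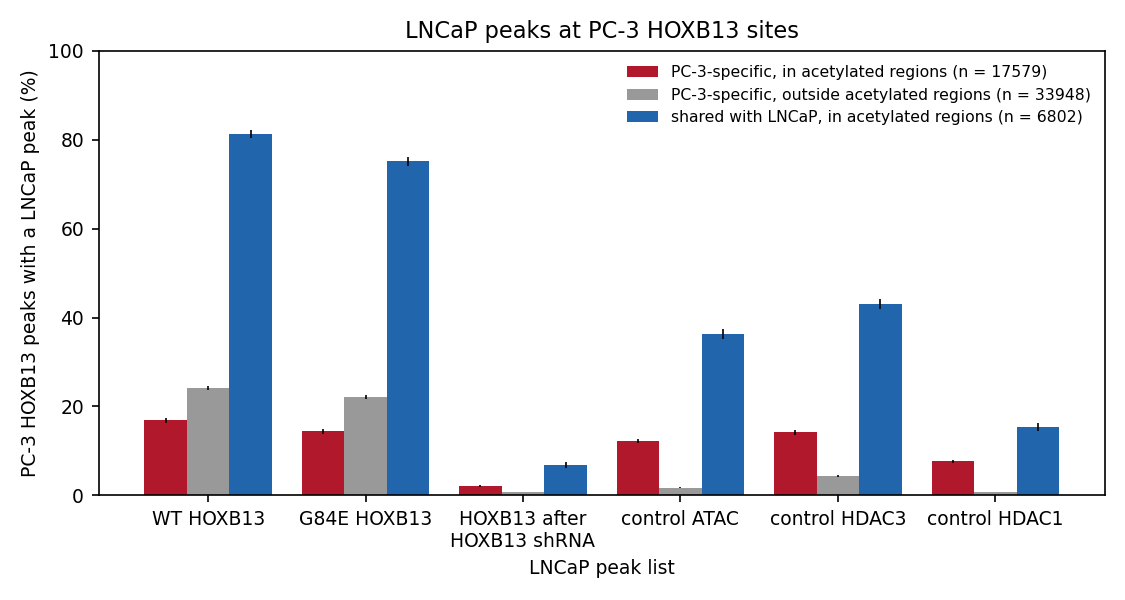
Percent of PC-3 HOXB13 peaks in 3 classes (bars) that overlap a peak of each LNCaP list (horizontal axis), with Wilson 95% intervals. PC-3-specific acetylated sites are below the PC-3-specific peaks outside acetylated regions for WT (16.8% against 24.2%) and G84E, and above them for ATAC (12.2% against 1.75%), HDAC3 and HDAC1.

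These 2 features went with opposite ends of the range of PC-3 HOXB13 tag counts. The sites were divided into 5 equal groups by tag count. ATAC peaks in LNCaP were found at 20.4% of the weakest group (4.70 to 9.40 normalized tags; 95% CI 19.1 to 21.8) and at 3.70% of the strongest (28.2 to 1174.5 normalized tags; 3.12 to 4.37), with 17.3%, 12.1% and 7.42% between them. HDAC3 went from 22.9% to 5.60% and HDAC1 from 14.3% to 1.45%. WT HOXB13 took the other direction, from 14.3% (13.2 to 15.5) to 22.2% (20.9 to 23.6), and G84E from 12.2% to 20.3%. Outside acetylated regions the ATAC share was 2.02% and 0.788% in the peaks of the same weakest and strongest tag range, and the WT share 19.9% and 35.4%.

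**Figure D3:**
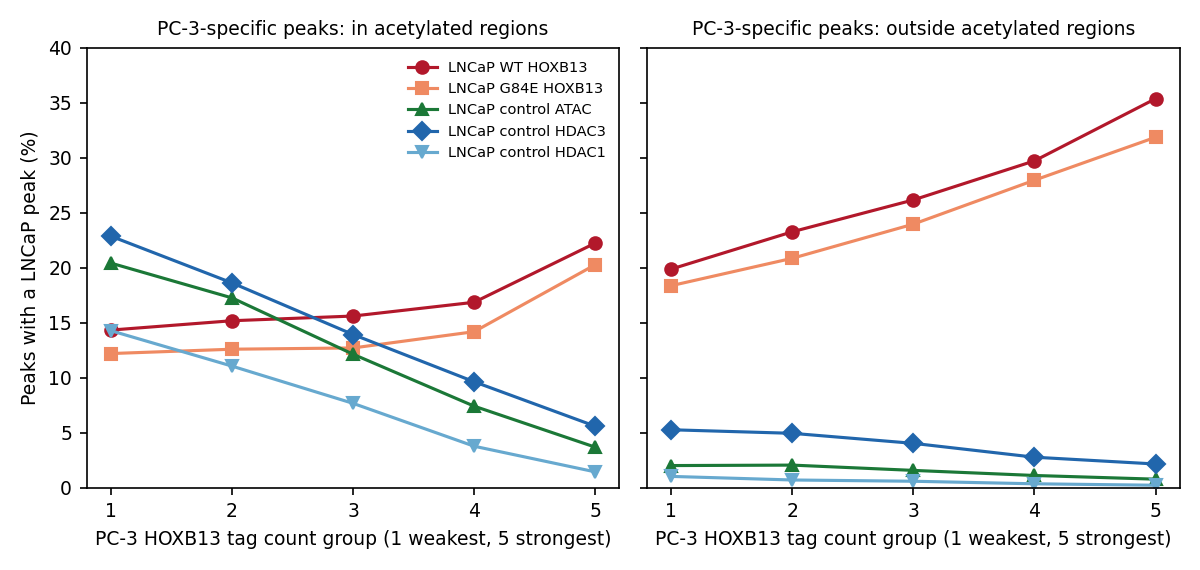
Percent of PC-3-specific HOXB13 peaks with a LNCaP peak (vertical axis) in 5 groups of PC-3 HOXB13 tag count (horizontal axis), for sites in acetylated regions (left) and for peaks outside them in the same tag ranges (right). On the left the ATAC, HDAC3 and HDAC1 lines go down and the WT and G84E lines go up from the weakest to the strongest group.

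The sites were also split by LNCaP accessibility, and here re-expressed HOXB13 went together with ATAC. The 2143 sites with a LNCaP control ATAC peak had a median of 11.2 normalized tags of PC-3 HOXB13, and the 15436 without had 15.9. Their acetylated regions were about equally wide (2556 and 2509 bp) but had more H3K27ac, 97.6 against 53.5 normalized tags. Deacetylases were frequent at them: 76.6% had a control HDAC3 and 49.9% a control HDAC1 peak, against 5.46% and 1.78% of the sites without ATAC. WT HOXB13 had a peak at 30.4% of them and at 15.0% of the others, and G84E at 24.1% and 13.0%. Of all sites, 943 had ATAC, HDAC3 and HDAC1 together, and 14476 (82.3%) had none of the 3. At 64.6% of the sites, and at 63.8% of the PC-3-specific peaks outside, no LNCaP list had a peak; for the control HOXB13 list the rule fixed this.

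Accessible sites that also had HDAC3 included some strong ones. Chromosome 5 at 148865586 to 148865976 had 105.6 normalized tags of HOXB13 in PC-3 (95% CI 93.8 to 118.4), ATAC peaks of 7.20 in the LNCaP control and 6.28 after knockdown, and control HDAC3 of 32.5. Chromosome 14 at 73925312 to 73925702 had 86.0 normalized tags of HOXB13, control HDAC3 of 19.9 and 22.8 after knockdown. Chromosome 14 at 62004314 to 62004704 had 75.6, with HDAC3 of 27.4 and 25.1 and a WT peak of 9.68. Control and knockdown counts cover unlike peak widths, 471 and 365 bp for HDAC3 and 96 and 111 bp for ATAC. Chromosome 5 at 13944695 to 13945085 had 71.6 normalized tags in PC-3 and, in LNCaP, WT and G84E peaks of 33.8 and 24.2. It lay 368 bp from a LNCaP control HOXB13 peak, and the site at 62004314 on chromosome 14 lay 353 bp from one. Chromosome 14 at 51808966 to 51809356 had 65.1 and control HDAC3 of 15.8. Of these 5 sites, HDAC3 was called again after knockdown at 73925312 and 62004314 on chromosome 14 and not at the other 3.

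HOXB13 knockdown in LNCaP was next read at those LNCaP peaks. By the rule, the sites overlap no HOXB13 peak called in the LNCaP control. Of 2343 control ATAC peaks over a PC-3-specific acetylated site and without a LNCaP HOXB13 peak, 62.3% (95% CI 60.3 to 64.3) were called again after knockdown, against 45.8% of the 23902 ATAC peaks without HOXB13 in either line and 49.8% of all control ATAC peaks. The difference was 16.5 percentage points (14.5 to 18.6), and 6.02 at equal ATAC tag count. HDAC3 peaks at the sites were called again in 73.8% of 2386 cases (72.0 to 75.5), against 42.0% of 17653 without HOXB13 in either line and 47.6% of all. That difference was 31.8 points (29.9 to 33.7), and 14.6 at equal HDAC3 tag count. Tag density here is the count divided by the peak width of its list. That width was 471 bp for control HDAC3 and 365 bp after knockdown, and 96 and 111 bp for ATAC. The ratios depend on these unlike widths, whose part was not tested. The tag density of HDAC3 peaks called in both libraries had a median log2 ratio (knockdown over control) of −0.11 at the sites and −0.027 at peaks without HOXB13. At equal HDAC3 tag count this difference changed sign, from −0.084 to 0.13, and for ATAC it went from −0.057 to 0.058. A log2 ratio of −1 or below was found at 94 of the 1760 HDAC3 peaks at the sites (5.34%), against 5.04% of all, and one of 1 or above at 28 (1.59%), against 2.15% of all. For ATAC these were 27 of 1460 (1.85%, against 1.73% of all) and 7 (0.479%, against 0.860% of all). These shares were near those of all peaks.

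H3K27ac after HOXB13 knockdown in PC-3 is the readout of these sites in their own line. An acetylated region was called again over 16102 of the 17579 sites (91.6%, 95% CI 91.2 to 92.0), against 37.1% of all PC-3 HOXB13 peaks, most of which had no acetylated region in the control either. For shared peaks in acetylated regions the share was 92.7% (92.1 to 93.3), a difference of −1.11 percentage points (−1.84 to −0.353), and −0.216 at equal HOXB13 tag count. As loci, those with a site were called again in 92.6% of 16116 cases (92.2 to 93.0), against 65.7% of the 25722 loci without a PC-3 HOXB13 peak (65.1 to 66.3) and 78.4% of all control loci. This difference of 26.9 points was 7.16 at equal H3K27ac tag count and 1.79 among loci of at least the median control tag count. In the weakest of 10 groups of control tag count, 56.7% of loci with a site and 27.9% of loci without HOXB13 were called again. In the strongest group both were at 100%, which leaves no room for a difference. With the better-scoring 50% of each list, 60.3% of the sites then selected had a region called again. The knockdown list was cut as well, which by itself lowers this share.

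H3K27ac tag counts were slightly higher in the knockdown library at these loci, as they were in each class of loci. At the 14927 loci with a site that were called in both libraries, the median count went from 61.5 normalized tags to 75.4, over a median of 2599 and 2709 bp. The median log2 ratio was 0.29 (quartiles −0.024 and 0.59), and 73.4% of these loci had a ratio above 0. Over all 37737 loci called in both it was 0.27, so the loci with a site lay 0.020 above the general median. The share of tags in regions was 38.87% for pGIPZ and 46.24% for shHOXB13, a log2 ratio of 0.25. A general rise and a difference in enrichment cannot be told apart here. Loci without a PC-3 HOXB13 peak had a median of 0.20 and loci with shared HOXB13 peaks only 0.37. As tag density these medians were 0.22 for loci with a site, 0.15 without HOXB13 and 0.27 with shared peaks. The ratios use the control library that also defined the sites.

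**Figure D4:**
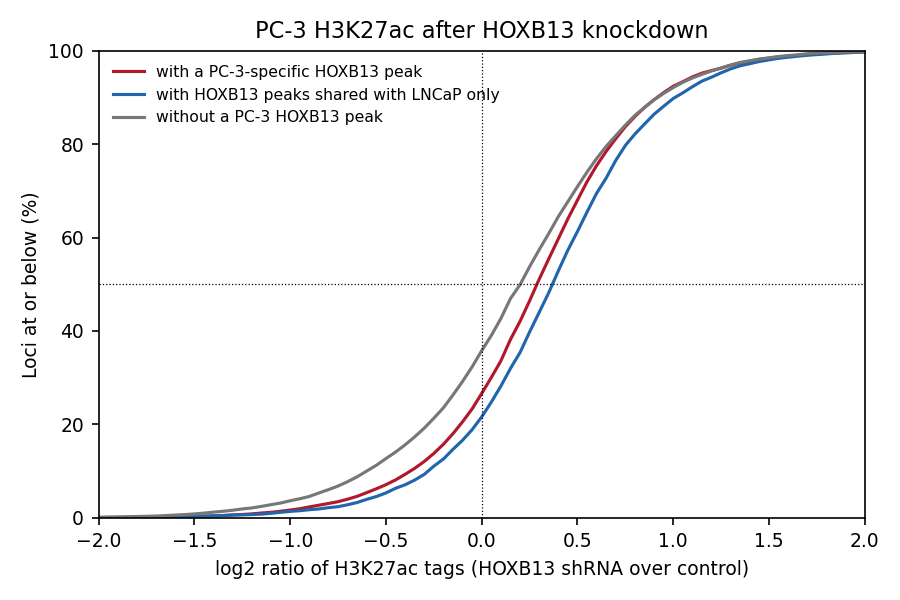
Cumulative percent of PC-3 H3K27ac loci called in both libraries (vertical axis) by log2 ratio of tags, HOXB13 shRNA over control (horizontal axis), for 3 classes of loci. Loci with a PC-3-specific HOXB13 peak cross 50% at 0.29, between loci without a PC-3 HOXB13 peak at 0.20 and loci with shared peaks only at 0.37.

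Large differences in H3K27ac were found at few loci with a site, as over all loci. A log2 ratio of 1 or above was found at 1145 of the 14927 loci with a site (7.67%), against 8.44% of all loci called in both, and one of −1 or below at 249 (1.67%), against 2.50% of all. The ratio differed little with the strength of HOXB13. Over 5 equal groups of loci by the HOXB13 tag count of their strongest site, the median log2 ratio was 0.29, 0.26, 0.29, 0.28 and 0.31 from the weakest to the strongest. The Spearman rank correlation over the 14927 loci was 0.025, with the same libraries behind every point. Loci whose site had a LNCaP ATAC peak had a median of 0.36 and the other loci 0.28, a difference of 0.086, or 0.11 at equal H3K27ac tag count. For LNCaP HDAC1 the medians were 0.38 with and 0.28 without a peak, and for LNCaP WT HOXB13 0.30 and 0.28.

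Single loci with a site differed more. Named here are only loci with a mean of at least 68.5 normalized tags over both libraries, the median of loci with a site called in both. The highest ratio belonged to chromosome 13, 70822166 to 70829431, with 42.8 and 216.7 normalized tags of H3K27ac (log2 ratio 2.34, exact 95% CI 1.95 to 2.75), around a HOXB13 site of 14.5 normalized tags. The called regions there spanned 2426 bp in the control and 7265 bp after knockdown, and as tag density the log2 ratio was 0.76. Next were chromosome 14 at 50415607 to 50420142 (32.7 and 130.2 normalized tags; log2 ratio 1.99, 1.53 to 2.48) and chromosome 12 at 99199570 to 99204225 (32.1 and 122.8; 1.94, 1.46 to 2.43). Chromosome 7 at 121022054 to 121029661 followed (32.7 and 122.7; 1.91, 1.44 to 2.40), and then chromosome 17 at 54848236 to 54853383 (82.9 and 283.2; 1.77, 1.48 to 2.08). In each of the 5 the called regions were wider after knockdown, and their density ratios were between 0.35 and 0.76. Intervals at these extremes are not adjusted for the choice of the most extreme loci.

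The lowest ratio belonged to chromosome 10, 68541431 to 68549172, with 199.8 and 48.8 normalized tags of H3K27ac (log2 ratio −2.03, 95% CI −2.44 to −1.64; −0.93 as tag density). Its HOXB13 site at 68543417 to 68543807 had 48.8 normalized tags in PC-3, and in LNCaP it had a WT and a G84E peak. The next lowest were on chromosome 8 at 138279650 to 138286594 (108.3 and 42.2 normalized tags; log2 ratio −1.36) and on chromosome 12 at 29325978 to 29334212 (143.0 and 56.2; −1.35). Their density ratios were −0.089 and −0.0040, so the lower counts there came with narrower called regions. On chromosome 5 at 149521396 to 149524286 the counts were 106.3 and 42.9 (−1.31; −0.46 as density), and on chromosome 7 at 75966242 to 75971093 102.3 and 41.4 (−1.30; −0.54 as density). None of the 10 loci had a LNCaP control ATAC, HDAC3 or HDAC1 peak at its strongest site, and 82.3% of all sites had none of these. As a whole the loci overlapped peaks of 3 to 8 of the 12 lists.

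In all, 1189 loci with a site were not called after knockdown. The strongest of these was on chromosome 17 at 46131946 to 46134657, with 74.2 normalized tags of H3K27ac in the control and a HOXB13 site of 9.76. It was followed by chromosome 17 at 57771789 to 57775510 (69.5 of H3K27ac and 14.1 of HOXB13). Then came chromosome 21 at 16362639 to 16367357 (58.1 and 8.31), chromosome 3 at 36689089 to 36691191 (58.1 and 51.3) and chromosome 1 at 145349895 to 145354701 (55.5 and 9.04). These counts compare with a median of 54.8 over all loci with a site. The tags of the knockdown library below its calling threshold are not in the lists, so a locus not called need not have lost its acetylation.

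The strongest PC-3-specific acetylated sites differed in the fold over their surroundings. The highest count was on chromosome 18 at 18519177 to 18519567, with 1174.5 normalized tags (95% CI 1134.5 to 1215.6) and a fold over local of 4.64. Chromosome 11 at 51582734 to 51583124 (442.8 normalized tags, fold 5.04), chromosome 8 at 46849173 to 46849563 (338.7, fold 5.06) and chromosome 1 at 566005 to 566395 (330.8, fold 5.45) were alike. All 4 had HDAC3 peaks of 318.1 to 1468.0 normalized tags in at least 1 of the LNCaP libraries and lower H3K27ac after knockdown (log2 ratios −0.40, −0.44, −0.42 and −0.74 in that order). The nearest LNCaP control HOXB13 peak lay 85, 2049, 6520 and 649 bp away in the same order. The site on chromosome 11 and that at 566005 on chromosome 1 also had LNCaP HOXB13 peaks after knockdown, of 620.6 and 46.2 normalized tags. Over all peaks the medians were 15.3 normalized tags for control HDAC3, 11.8 for HDAC3 after knockdown and 4.87 for HOXB13 after knockdown. No input library was used in calling, and whether the counts at these 4 sites reflect HOXB13 binding was not tested. In all, 499 of the sites (2.84%) were called in 9 or more of the 12 lists. Without those the shares of sites with an ATAC, HDAC3 and HDAC1 peak were 9.67%, 11.7% and 5.44%.

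The other 4 of the 8 strongest sites had folds of 18.0 to 33.9 over local. Chromosome 10 at 33553214 to 33553604 had 409.9 normalized tags of HOXB13 in an acetylated region of 53872 bp, with no LNCaP peak. Chromosome 1 at 172413774 to 172414164, named above for its WT and G84E peaks, had 288.0 and 464.4 normalized tags of H3K27ac (log2 ratio 0.69). Chromosome 20 at 50283638 to 50284028 had 291.7 normalized tags of HOXB13. The H3K27ac region over it had 79.5 normalized tags with pGIPZ and 597.5 with shHOXB13, but summed over the whole locus the log2 ratio was 0.22. Chromosome 10 at 36918406 to 36918796 had 117.6 and 159.0 normalized tags of H3K27ac (0.44). None of these 4 had a deacetylase or ATAC peak in LNCaP, and 82.3% of all sites had none in the LNCaP control.

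Chromosomes differed in both the number and the strength of the sites. The acetylated share of PC-3-specific peaks was highest on chromosome 19 (406 of 821, 49.5%, 95% CI 46.0 to 52.9) and chromosome 16 (295 of 602, 49.0%). It was lowest on chromosome X (457 of 1981, 23.1%) and chromosome 13 (24.1%, 22.1 to 26.4). Shared peaks had a similar order, with 63.1% on chromosome 19, 52.8% on 16, 28.9% on X and 22.3% on 13. On chromosome 19 a LNCaP ATAC peak lay at 32.5% of the sites, and on the other chromosomes at 6.82% to 19.3%.

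HOXB13 tag counts at the sites were highest on chromosomes 10, 14 and 8, with medians of 24.2, 23.1 and 20.6 normalized tags, and between 11.2 and 17.4 on the other chromosomes. The shared acetylated peaks were highest on the same 3 chromosomes, at 32.5, 32.2 and 30.6. So were the PC-3-specific peaks outside acetylated regions, at 13.0 on each, against 9.40 to 11.6 elsewhere. Peaks of the LNCaP control HOXB13 library were not, with medians of 7.57, 7.57 and 7.28 there and 6.98 to 7.57 elsewhere. Median H3K27ac counts of loci with a site on chromosomes 10, 14 and 8 were 60.5, 60.1 and 55.2 normalized tags, within the range of 42.8 to 73.5 over all chromosomes. All these counts are scaled to library totals only, with no input library and no correction for DNA copy number.

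**Figure D5:**
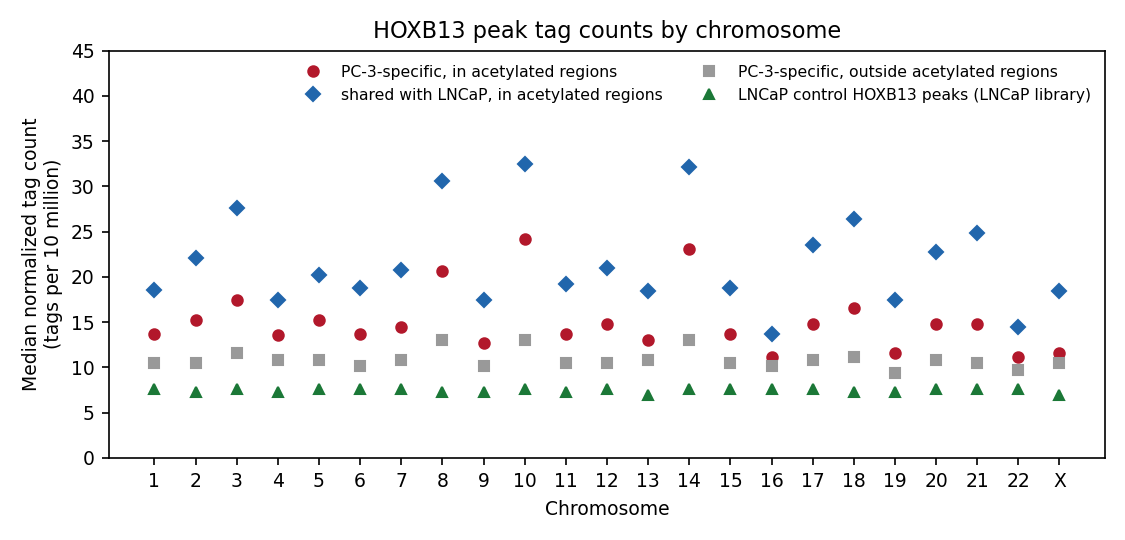
Median normalized tag count of HOXB13 peaks (vertical axis, tags per 10000000) on each chromosome (horizontal axis) for 3 classes of PC-3 peaks and for the LNCaP control library. PC-3-specific acetylated sites are highest on chromosomes 10, 14 and 8 (24.2, 23.1 and 20.6), as are shared peaks, while the LNCaP medians lie between 6.98 and 7.57.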

How the data were processed

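Peak lists of 12 of the 16 samples were used; the 4 LNCaP H3K27ac samples were not analysed here. The submitters' processing notes name Bowtie2, HOMER 4.2 and hg19. HOMER findPeaks was run by the authors on each library alone and with no input library, per the file headers: the factor style (fixed width, false discovery rate 0.001, at least 4-fold over 10000 bp) for HOXB13, HDAC1, HDAC3 and ATAC, and the histone style (stitched windows of 1000 bp) for H3K27ac. The signal in the deposited lists is the normalized tag count, scaled by the authors to 10000000 tags. The deposited findPeaks score ranked peaks within each list. The authors' fold over local only describes peaks. Region widths are those of the deposited lists.

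Groups were taken from the labels. Peaks sharing 1 bp or more were counted as overlapping, with the end coordinate read as not included. Overlapping H3K27ac regions of both PC-3 libraries were summed into loci. Whole tags were recovered from counts and library totals (100% of values under 10 within 0.1 tags) for exact intervals. Shares have Wilson and differences Newcombe 95% intervals. Equal-strength differences average over 10 equal groups of tag count, weighted by the sites. A log2 ratio of 1 or −1 counted as large. PCR duplicates cannot be told from independent molecules, so intervals cover counting error only, and total tags limit the precision.

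The sites and lists were chosen with earlier results of these data known. Named regions lay on chromosomes 1 to 22 and X, in fewer than 9 of the 12 lists: the 8 strongest sites, the 5 strongest with WT and G84E and with ATAC and HDAC3, the 5 loci with the highest log2 ratio, the lowest and the highest count not called again, the 3 with the most sites, and those at the edges of the rule. The locus with the most sites of all, called in 11 lists, is named outside this rule. The gene lists and motifs of the plan needed an hg19 annotation or sequence, and were not used here. Calculations used Python 3.11.15, numpy 2.4.6, pandas 2.3.3, scipy 1.17.1 and matplotlib 3.10.9, tested on simulated data. Alternatives varied overlap, list length, peak strength, chromosomes, scaling and matching.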

Additional observations from a re-analysis of the deposited data

How the results depend on the processing

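No paired analysis was possible because each group held 1 library, and leaving out a replicate was impossible for the same reason. Of 121 alternative values over 17 results, 41 stayed within the tolerance of their result (its counting error, or 1.5 times for the count of sites) and 80 moved beyond it. No difference or log2 ratio among them changed sign, while counts and shares cannot be negative. The differences in LNCaP tag density, which changed sign at equal tag count, were not among the 17 results. The alternatives for the shares relative to PC-3-specific peaks outside acetylated regions, and for tag density with equal strength, were chosen after seeing the data. Alternatives for gene starts and motifs were not run, since no hg19 annotation or sequence was used here. Where no construction is named below, the cause was not tested. Restriction to chromosomes 1 to 22 and X moved no result.

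With only PC-3 HOXB13 peaks of at least the list median there were 10816 sites, with a median of 21.7 normalized tags. The shares of sites with a LNCaP peak were 18.2% (WT), 15.6% (G84E), 1.51% (HOXB13 after knockdown), 7.98% (ATAC), 9.87% (HDAC3) and 4.45% (HDAC1), and H3K27ac was called again at 92.9%. Relative to peaks outside, the differences were −10.6 (WT), −10.9 (G84E), 6.64 (ATAC), 6.54 (HDAC3) and 3.98 points (HDAC1). Against loci without HOXB13, the difference was 22.02 points in loci called again and 0.062 in log2 ratio.

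With the better-scoring 50% of every list there were 6721 sites, with a median of 22.1 normalized tags and a median log2 ratio of 0.31. The LNCaP control HOXB13 list and the PC-3 knockdown H3K27ac list were cut in the same way. Sites so selected can thus overlap a lower-scoring LNCaP HOXB13 peak. The shares were 13.6% (WT), 11.4% (G84E), 1.47% (HOXB13 after knockdown), 7.78% (ATAC), 9.95% (HDAC3), 3.79% (HDAC1) and 60.3% (H3K27ac called again). Relative to peaks outside, ATAC differed by 6.07, HDAC3 by 6.97 and HDAC1 by 3.07 points. Against loci without HOXB13 the differences were 5.83 points and 0.023 in log2 ratio.

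With peak centres within 100 bp, and within 500 bp of an H3K27ac region, 19945 sites were selected. Their shares were 13.1% (WT), 10.8% (G84E), 0.978% (HOXB13 after knockdown), 8.55% (ATAC), 7.66% (HDAC3) and 2.36% (HDAC1). The differences from peaks outside were −6.13, −6.11, 7.11, 4.77 and 2.07 points for WT, G84E, ATAC, HDAC3 and HDAC1, and the difference in loci called again was 26.1. With an overlap of at least 50% of the shorter interval the shares were 14.7% (WT), 12.3% (G84E), 1.61% (HOXB13 after knockdown), 12.1% (HDAC3) and 4.71% (HDAC1). HDAC3 then differed by 8.13 and HDAC1 by 4.18 points, and loci called again by 27.8.

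Without regions called in 9 or more of the 12 lists the shares were 15.4% (WT), 13.1% (G84E), 1.24% (HOXB13 after knockdown), 9.67% (ATAC), 11.7% (HDAC3) and 5.44% (HDAC1), and the median log2 ratio 0.28. The differences from peaks outside were −8.75, −9.02, 7.93, 7.23 and 4.71 points in the order WT, G84E, ATAC, HDAC3, HDAC1. With equal numbers of HOXB13 peaks, and the sites selected anew from them, WT was at 6.61% and G84E at 5.75%, with differences of −4.32 and −4.67. At equal strength the differences were −10.0 (WT), −10.2 (G84E) and 10.3 (HDAC3).

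The median log2 ratio of H3K27ac at loci with a site was 0.020 when centred on all loci, 0.22 as tag density, and 0.24 when loci called in 1 list only were included. Its difference from loci without HOXB13 was 0.12 at equal strength, 0.12 with loci called in 1 list only, 0.11 for loci of at least the median control tag count, 0.066 as tag density and 0.054 as tag density at equal strength. The difference in loci called again was 7.16 points at equal strength and 1.79 for loci of at least the median. Nearly all of the latter were called again in both classes, which left little room for a difference.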
